A study of Homo sapiens with 9 samples.

Results

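Transcripts of 10 genes that mark or drive the epithelial and mesenchymal states were followed in 786-O cells after knockdown of ARNT or of BMAL1. The genes were the junction and surface genes CDH1, CDH2 and EPCAM, the intermediate filament gene VIM, and the transcription factor genes ZEB1, ZEB2, SNAI1, SNAI2, TWIST1 and TWIST2. They were chosen by name, with earlier results of these data known, and all 10 had a row among the 38021 genes of the count table. 786-O is an established line from a human clear cell renal cell carcinoma (ccRCC) that lacks functional VHL, so HIF2α is stable at normal oxygen, and this background was shared by all groups. A pLKO.1 lentivirus delivered a control hairpin RNA (shControl), a hairpin against ARNT (shARNT) or a hairpin against BMAL1 (shBMAL1), and infected cells were selected for 1 week with puromycin at 2.5 µg/mL and then kept at 1.25 µg/mL. The labels give 3 biological replicates for each hairpin, 1 library apiece, and name no more than 1 hairpin per target, so the loss of the target and other effects of its hairpin cannot be told apart. Nothing says that the replicates came from separate infections, and p values therefore measure only the spread between these libraries. The time from selection to harvest was not given.

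In an epithelial cell, E-cadherin (CDH1) joins neighbouring cells at adherens junctions, and EPCAM is a surface glycoprotein of epithelial cells. In the epithelial-mesenchymal transition (EMT), CDH1 is repressed by zinc finger factors of the ZEB and SNAI families and by the bHLH factors TWIST1 and TWIST2, while N-cadherin (CDH2) and vimentin (VIM) are made instead. The proximal tubule, from which ccRCC is thought to arise, is an epithelium that normally contains much N-cadherin, and ccRCC commonly contains vimentin, so these markers need not exclude each other in such cells. ARNT and BMAL1 are related bHLH-PAS proteins that work as dimers, among them dimers of ARNT with HIF2α and, in the circadian clock, of BMAL1 with CLOCK.

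The libraries held 33793043 to 35444731 reads, with 20068 to 20778 genes detected in each. Values are normalised read counts, which are counts divided by a size factor for the depth of the library, and are given per library or as mean ± SD (n = 3). ARNT stood at 1226 ± 23.2 in shARNT, against 2352 ± 184 in the control and 2014 ± 76.2 in shBMAL1. BMAL1, listed as ARNTL, stood at 326 ± 29.2 in shBMAL1, against 761 ± 32 in the control and 633 ± 57.8 in shARNT, so each target was lowest in the libraries labelled with its own hairpin. Of the 7 renal carcinoma markers, PAX8 was at 10004 ± 516 in shControl, EPAS1 at 11110 ± 568 and KRT18 at 4741 ± 186. PAX2 was at 613 ± 19.5 and LHX1 at 376 ± 18.8, while CA9 was at 128 ± 18.9 and NDUFA4L2 at only 22.1 ± 5.35. Of the 6 proximal tubule markers, GGT1 was at 7678 ± 563 in shControl, CUBN at 59.3 ± 18.4, SLC34A1 at 28.2 ± 5.66 and AQP1 at 16.8 ± 8.16, LRP2 averaged under 1 count in each group, and SLC22A6 was listed at 0. Of the immune markers, CD68 was at 7395 ± 424, PTPRC averaged under 1 count in each group and CD3E was listed at 0, as was the endothelial marker CDH5.

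Changes were called in DESeq2 (two-sided Wald test) where the p adjusted over all genes tested by Benjamini-Hochberg was under 0.1. Their size is given as a log2 fold change with its standard error (SE). Each target was called lower under the other hairpin too. ARNT was at −0.23 under shBMAL1 (adjusted p 0.0187), against −0.94 under shARNT. BMAL1 was at −0.26 under shARNT (adjusted p 0.0294), against −1.23 under shBMAL1. Under shARNT, 4 of the 7 members tested were called, where 35.4% of all genes were. VIM and ZEB1 were lower (19% of all genes were called lower), and ZEB2 and SNAI1 were higher (16.5% of all genes were called higher). Without shControl replicate 2 the count was 2, and none of the 4 changes reached 1.5-fold. Under shBMAL1, 4 of the 8 members tested were called, where 36.8% of all genes were. VIM, ZEB1 and SNAI2 were lower (19.4% of all genes), and CDH1 was higher (17.4% of all genes). The median log2 fold change of the tested members was −0.10 under shARNT and 0.03 under shBMAL1, with medians of 0.0029 and 0.015 over all genes tested. Both knockdowns were compared with the same shControl libraries. The knockdowns were also compared directly, shBMAL1 against shARNT, which needs no control library.

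**Figure D1:**
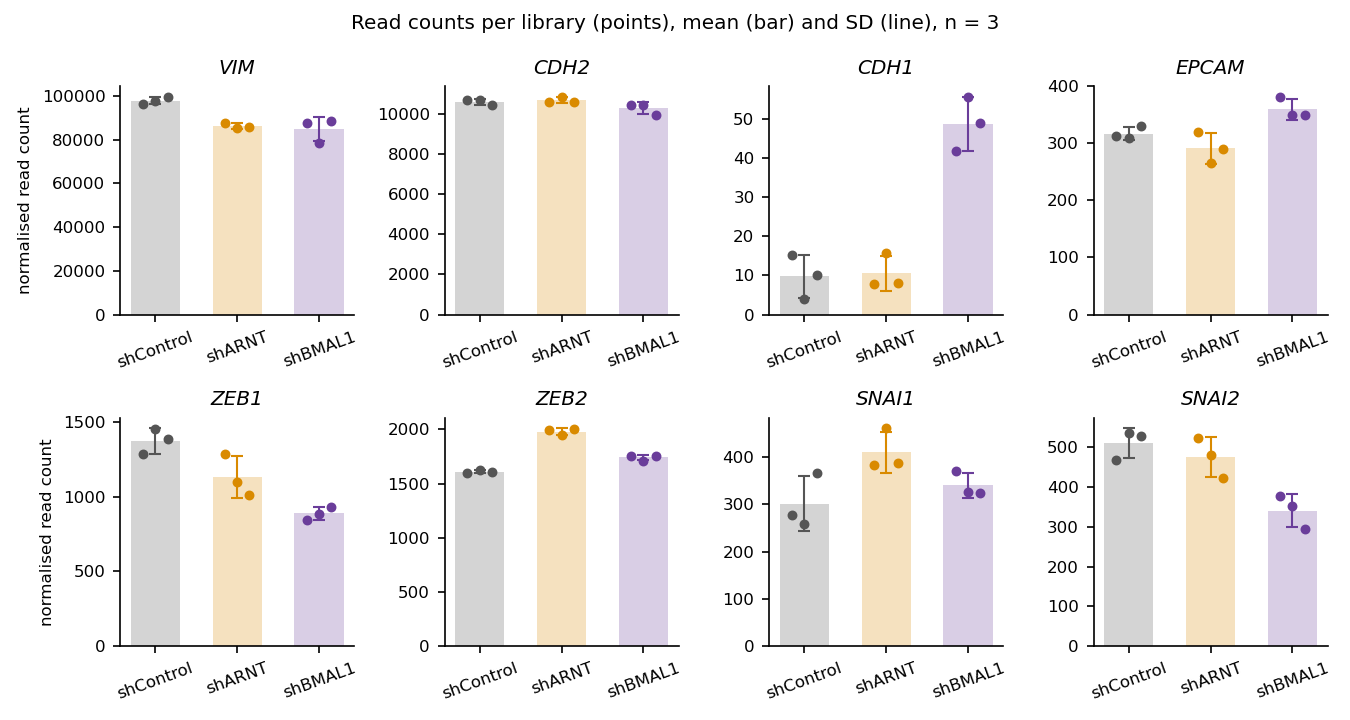
Normalised read counts (vertical axes, each from 0) of the 8 detected members in shControl, shARNT and shBMAL1, with a point for each library, a bar for the mean and a line for the SD (n = 3). CDH1 is at 41.7 to 55.4 in shBMAL1 and at most 15.7 elsewhere, while CDH2 stays between 9923 and 10831 in all 9 libraries.

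CDH1, the gene of E-cadherin (chr16:68771195-68869440 on GRCh37, plus strand), was the member with the largest fold change and also the lowest detected level. Its normalised counts were 15.1, 4.00 and 10.1 in the shControl libraries, 7.80, 15.7 and 7.95 in shARNT, and 41.7, 55.4 and 49.0 in shBMAL1. All shBMAL1 libraries lay above all others, and shControl and shARNT overlapped. The rise was 2.32 under shBMAL1 (SE 0.47, adjusted p 7.89e-06), a 5-fold change. Against shARNT it was 2.21 (SE 0.45, adjusted p 8.11e-06). Under shARNT the log2 fold change was 0.11 with a 95% interval from −1.29 to 1.52, so a rise or a fall within that interval remains possible. The gene also fell below the count level at which DESeq2 adjusts a p, so no call was made. The sign of this value turned without shControl replicate 2 (−0.26) or shARNT replicate 2 (−0.30).

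CDH1 remained far below CDH2 in every group. CDH2, the gene of N-cadherin (chr18:25512843-25757910, minus strand), had 10683, 10652 and 10405 normalised counts in shControl, 10585, 10831 and 10565 in shARNT, and 10448, 10410 and 9923 in shBMAL1. The groups lay within a few percent of each other. The log2 fold change was 0.01 under shARNT (95% interval −0.07 to 0.10, adjusted p 0.866) and −0.05 under shBMAL1 (95% interval −0.16 to 0.07, adjusted p 0.615). Per kilobase of transcript, CDH2 stood at 2555 normalised counts in shBMAL1 and CDH1 at 10.1, against 2635 and 2.02 in shControl. Counted as reads, there were 214 ± 32.8 CDH2 reads for each CDH1 read in shBMAL1, against 1467 ± 1049 in the control and 1125 ± 378 in shARNT. The control libraries stood at 708, 2664 and 1029 and overlapped those of shARNT, at 689 to 1358. The wide SD in shControl comes with CDH1 counts of only 15, 4 and 10.

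EPCAM (chr2:47572297-47614740, plus strand) did not pass the test in either knockdown. It had 312, 309 and 331 normalised counts in shControl, 320, 265 and 289 in shARNT, and 381, 349 and 350 in shBMAL1. All shBMAL1 libraries were above all shControl libraries, yet the log2 fold change was 0.18 (95% interval −0.07 to 0.43, adjusted p 0.312). Under shARNT it was −0.12 (95% interval −0.38 to 0.14, adjusted p 0.56). The direct comparison called it, at 0.30 (SE 0.13, adjusted p 0.0717), but the call was lost in 5 of the 6 fits that left out a library. These were the fits without shARNT replicate 2 (adjusted p 0.291), shARNT replicate 3 (0.184), shBMAL1 replicate 1 (0.213), shBMAL1 replicate 2 (0.121) and shBMAL1 replicate 3 (0.127). It was also lost with the replicate number as a block (0.31, adjusted p 0.158).

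VIM, the gene of vimentin (chr10:17270240-17279592, plus strand), was the most abundant member and fell modestly in both knockdowns. It had 96420, 97882 and 99638 normalised counts in shControl, 87743, 85278 and 85922 in shARNT, and 87690, 78532 and 88407 in shBMAL1. Neither knockdown group overlapped shControl. The log2 fold change was −0.18 under shARNT (SE 0.04, adjusted p 0.000119), a change of −11.7%, and −0.21 under shBMAL1 (SE 0.06, adjusted p 0.00447), a change of −13.5%. The knockdowns were not separated from each other (−0.03, 95% interval −0.15 to 0.10, adjusted p 0.824). Even so, VIM stayed at 39404 normalised counts per kilobase in shBMAL1, the highest of the members.

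The VIM locus carries an antisense RNA gene, VIM-AS1 (chr10:17256238-17272017, minus strand), which shares 656 exon bases with VIM, 12.7% of the exon bases of VIM. The VIM-AS1 row held 52215 ± 5102 normalised counts in the control, and fell by 0.18 on the log2 scale to 46089 ± 1269 in shARNT (adjusted p 0.0188) and by 0.24 to 44344 ± 1745 in shBMAL1 (adjusted p 0.00556). The call under shARNT was lost without shControl replicate 3 (−0.10, adjusted p 0.187) or shARNT replicate 3 (−0.16, adjusted p 0.104). For each VIM read there were 0.489 to 0.581 VIM-AS1 reads in every library, with group means of 0.533 ± 0.0458, 0.534 ± 0.0111 and 0.523 ± 0.0271. Whether the counting used strand is not stated, so reads of the shared exons cannot be assigned to either gene from the table. Adding the antisense rows to VIM, ZEB1 and ZEB2, an alternative chosen after seeing the data, changed no count of members called.

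ZEB1 and ZEB2 encode related zinc finger repressors that bind E-box pairs in the CDH1 promoter, and their transcripts moved in opposite directions under shARNT. ZEB1 (chr10:31607424-31818742, plus strand) had 1282, 1450 and 1385 normalised counts in shControl, 1288, 1098 and 1014 in shARNT, and 847, 883 and 932 in shBMAL1. The shBMAL1 libraries were below all others, while a shARNT library at 1288 reached into the control range. The log2 fold change was −0.63 under shBMAL1 (SE 0.09, adjusted p 3.02e-11), a change of −35.4%, and −0.27 under shARNT (SE 0.09, adjusted p 0.0135). The direct comparison gave −0.35 (SE 0.10, adjusted p 0.00292), so the fall under shBMAL1 exceeded that under shARNT. The call under shARNT was lost without shControl replicate 2 (−0.23, adjusted p 0.103) and without shARNT replicate 3 (−0.20, adjusted p 0.146).

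ZEB2 (chr2:145121931-145278624, minus strand) had 1601, 1622 and 1606 normalised counts in shControl, 1994, 1945 and 2000 in shARNT, and 1758, 1710 and 1754 in shBMAL1. None of the groups overlapped, with shARNT highest and shBMAL1 between. The rise under shARNT was 0.30 (SE 0.06, adjusted p 2.36e-05), a change of 23.2%. Under shBMAL1 the log2 fold change was 0.11 (95% interval −0.03 to 0.25, adjusted p 0.271), which did not pass the test. ZEB2 was lower in shBMAL1 than in shARNT (−0.19, SE 0.07, adjusted p 0.0326), a call lost without shARNT replicate 1 (adjusted p 0.112), shARNT replicate 3 (0.117) or shBMAL1 replicate 2 (0.116).

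Promoter sequence was examined for the ZEB genes because of these opposed changes. HIF dimers recognise the cores ACGTG and GCGTG, the dimer of BMAL1 and CLOCK recognises the E-box CACGTG, which contains ACGTG, and ZEB and SNAI factors recognise CACCTG. These letters were searched on both strands in the 250 bases before each transcription start in the RefSeq promoter table (GRCh38.p14), which holds 35116 promoters. Of these, 18.5% held ACGTG, 32.2% GCGTG, 43.2% at least 1 of these cores, 6.35% CACGTG and 17.5% CACCTG. The table listed 12 starts of 5 members (VIM, CDH2, ZEB1, ZEB2 and TWIST2). None of the 12 windows held CACGTG, those of VIM and TWIST2 held none of the motifs, and those of CDH2 held a single GCGTG before 1 of 2 starts. Matches are printed as 30 bases on the strand of the gene, located by an exact match in GRCh37, with the motif or its reverse complement in capitals. The ZEB2 matches printed lay 188, 123 and 51 bases before its start.
ZEB2, chr2:145277857-145277886, minus strand: aaacttggcgatCACGTtttcacatgatgc
ZEB2, chr2:145277792-145277821, minus strand: aagataggtggcGCGTGtttcagggtctct
ZEB2, chr2:145277720-145277749, minus strand: gaagaggcgtaaCACGTcagtccgtcccca
ZEB1 start 1, chr10:31607277-31607306, plus strand: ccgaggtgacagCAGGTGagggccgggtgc
ZEB1 start 2, chr10:31607518-31607547, plus strand: tctccggtcgccGCGTGtcctcgccgtccc
ZEB1 start 3, chr10:31608048-31608077, plus strand: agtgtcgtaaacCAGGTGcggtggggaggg
ZEB1 start 5, chr10:31609282-31609311, plus strand: atgggccggtgtGCGTGcgcctcgcgcttt
ZEB1 start 6, chr10:31609991-31610020, plus strand: aaacgaggaaatACGTGtttaggagaaaac

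In all, the ZEB2 window held 2 ACGTG and 2 GCGTG and no CACCTG. For ZEB1, 3 of 7 listed starts had an ACGTG or GCGTG (6 matches), and 2 others had CACCTG (3 matches). The counts do not separate these starts, and a match of letters is not a measurement of binding.

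SNAI1 and SNAI2 encode Snail and Slug, zinc finger repressors that share the CACCTG site. SNAI1 (chr20:48599517-48605423, plus strand) had 278, 258 and 367 normalised counts in shControl, 384, 461 and 387 in shARNT, and 371, 326 and 324 in shBMAL1. The shARNT libraries were above all others, and shControl replicate 3 lay inside the shBMAL1 range. The rise under shARNT was 0.45 (SE 0.15, adjusted p 0.00968), a change of 36.7%, and the call was lost without shControl replicate 2 (0.35, adjusted p 0.101) and without shARNT replicate 2 (0.36, adjusted p 0.119). Under shBMAL1 the log2 fold change was 0.18 (95% interval −0.12 to 0.48, adjusted p 0.433), and the direct comparison did not pass the test (−0.27, 95% interval −0.53 to −0.01, adjusted p 0.108).

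SNAI2 (chr8:49830157-49834299, minus strand) fell under shBMAL1 and was not called under shARNT. It had 468, 535 and 529 normalised counts in shControl, 522, 481 and 422 in shARNT, and 376, 352 and 295 in shBMAL1. The shBMAL1 libraries were below all others, and shARNT overlapped shControl. The fall under shBMAL1 was −0.58 on the log2 scale (SE 0.13, adjusted p 4.69e-05), a change of −33.3%. Under shARNT it was −0.10 (95% interval −0.33 to 0.13, adjusted p 0.577). SNAI2 was lower in shBMAL1 than in shARNT (−0.48, SE 0.13, adjusted p 0.00189).

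TWIST1 (chr7:19060614-19157259, minus strand) and TWIST2 (chr2:239756673-239832230, plus strand) were listed at 0 in all 9 libraries, and a count of 0 allows up to 3 counts per library, for counting error only. A row at 0 need not mean that a transcript is missing, since reads can sit under an overlapping name. The row of CTNND1, for example, had 2.00 to 7.83 normalised counts per library while the read-through gene TMX2-CTNND1 had 18320 to 21590. For TWIST1 and TWIST2, no gene with a row in the count table shared exon bases with them in GENCODE v44. The annotation used for the counting was not given.

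**Figure D2:**
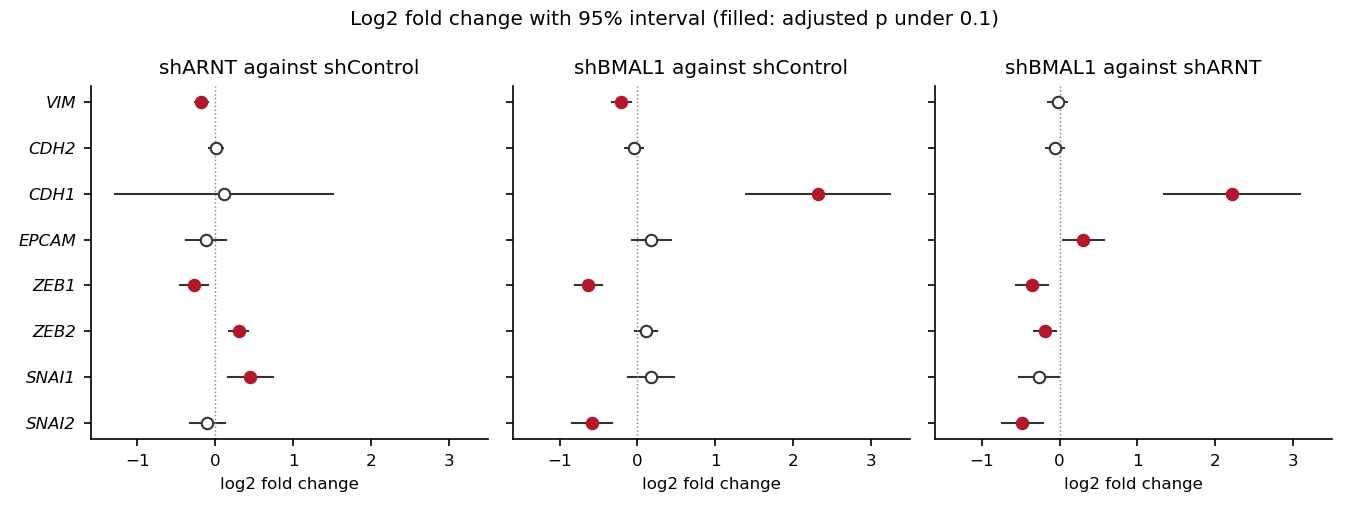
Log2 fold change (horizontal axis) of each detected member in the 3 comparisons, with its 95% interval as a line; filled points had an adjusted p under 0.1. CDH1 lies at 2.32 under shBMAL1 with the widest interval of the called members, and ZEB1 and SNAI2 lie at −0.63 and −0.58, while ZEB2 and SNAI1 are called only under shARNT among the comparisons with shControl.

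In the direct comparison 5 of the 8 members tested were called, where 35.3% of all genes were. ZEB1, ZEB2 and SNAI2 were lower in shBMAL1 (18% of all genes), and CDH1 and EPCAM were higher (17.3% of all genes). The median over the tested members was −0.12, with 0.0094 over all genes tested. The count of 5 fell to 3 without shARNT replicate 3 or without shBMAL1 replicate 2, with the calls of EPCAM and ZEB2 lost in both fits.

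The ratio between the members of each family was lower in both knockdowns than in the control libraries they share. There were 0.852 ± 0.0472 ZEB1 reads for each ZEB2 read in the control, against 0.573 ± 0.07 in shARNT and 0.510 ± 0.0255 in shBMAL1, and the lowest control library (0.801) was above the highest knockdown library (0.646). For SNAI2 the ratio to SNAI1 was 1.73 ± 0.319 in the control, against 1.17 ± 0.17 in shARNT and 1.00 ± 0.0862 in shBMAL1, and again no control library (lowest 1.44) was within the knockdown range (highest 1.36). These read ratios are not corrected for transcript length and are descriptive. In shARNT both denominators (ZEB2 and SNAI1) were called higher and ZEB1 was called lower, whereas in shBMAL1 both numerators (ZEB1 and SNAI2) were called lower and neither denominator was called.

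**Figure D3:**
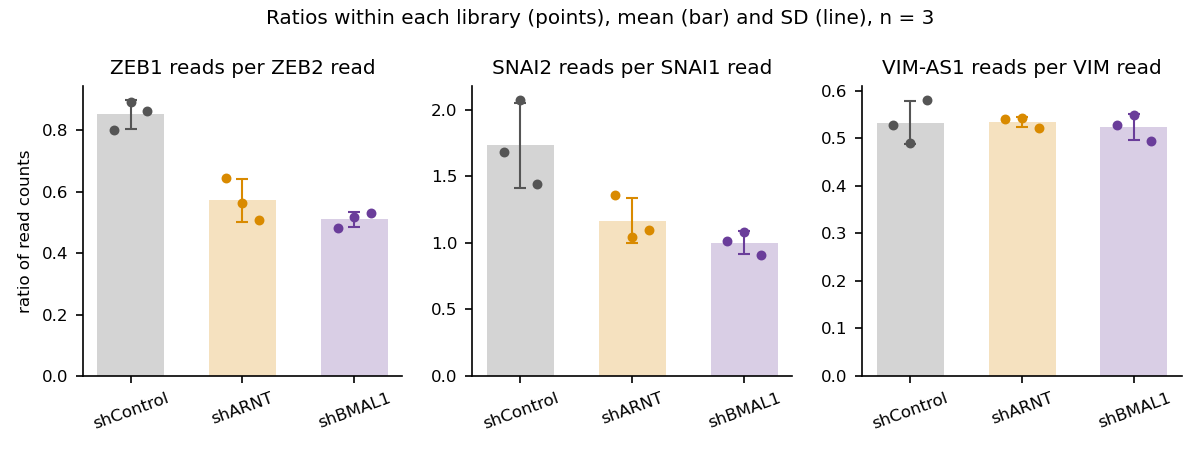
Ratios of read counts within each library (vertical axes from 0), with a point for each library, a bar for the mean and a line for the SD (n = 3). ZEB1 per ZEB2 and SNAI2 per SNAI1 are lower in every knockdown library than in every shControl library, and VIM-AS1 per VIM is 0.489 to 0.581 throughout.

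Other genes of the same programme were counted from lists chosen with earlier results known. Epithelial markers were called in both directions. Under shARNT, 8 of the 25 tested were lower and 5 higher (median −0.08), and under shBMAL1 6 of 30 were lower and 9 higher (median 0.00). Over all genes tested, 19% were called lower and 16.5% higher under shARNT, and 19.4% lower and 17.4% higher under shBMAL1, which is the background for the list counts that follow. CLDN2, a pore-forming claudin of the proximal tubule, rose from 847 ± 93.4 in the control to 2045 ± 174 with shARNT and 2749 ± 226 with shBMAL1 (1.27 and 1.70, adjusted p 4.33e-43 and 9.32e-69). CLDN1, a barrier-forming claudin, fell under shBMAL1 (−1.01, adjusted p 4.68e-29) and was at −0.05 under shARNT (adjusted p 0.673). The keratin gene KRT19 fell under shBMAL1 by 0.53 (adjusted p 2.96e-14) and was at 0.09 under shARNT (adjusted p 0.229). The desmosomal cadherin gene DSC2 rose under shBMAL1 (1.00, adjusted p 1.88e-06), as did MUC1, a membrane mucin gene (0.75, adjusted p 4.21e-05). Under shARNT, DSC2 was at −0.25 (adjusted p 0.457) and MUC1 was also called higher (0.36, adjusted p 0.0575).

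Some epithelial markers differed between the knockdowns in the direct comparison. JUP, which encodes plakoglobin, was at 316 ± 38.7 in the control, 196 ± 9.46 with shARNT and 407 ± 30.8 with shBMAL1, and was called lower under shARNT (−0.69, adjusted p 3.67e-05) and higher under shBMAL1 (0.36, adjusted p 0.027), with 1.05 between them (adjusted p 7.79e-13). LSR, a tricellular junction gene, gave −0.55 (adjusted p 2.31e-08), 0.64 (adjusted p 3.91e-11) and 1.20 (adjusted p 4.78e-41) in the same order. SPINT1, a protease inhibitor of epithelia, and PKP3, a plakophilin, were lower under shARNT, with log2 fold changes of −1.13 (adjusted p 6.39e-13) and −0.66 (adjusted p 5.33e-07), and were higher in shBMAL1 than in shARNT, by 0.87 (adjusted p 8.21e-07) and 0.46 (adjusted p 0.00192). Under shBMAL1 they were at −0.27 (adjusted p 0.119) and −0.20 (adjusted p 0.205). In the direct comparison 13 of 31 epithelial markers tested were higher in shBMAL1 and 6 lower, with a median of 0.30, where 17.3% of all genes were called higher and 18% lower, with a median of 0.0094. The claudin gene CLDN4 was raised under shARNT (0.48, adjusted p 4.69e-12) and lowered under shBMAL1 (−0.28, adjusted p 0.00433).

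Other cadherins changed in both directions. Among other cadherins and catenins, 6 of 11 tested were lower and 4 higher under shARNT, and 4 of 17 were lower and 5 higher under shBMAL1. CDH16, the kidney-specific cadherin, rose from 412 ± 19.5 in shControl to 2038 ± 80.1 in shBMAL1 (2.30, adjusted p 1.50e-142). It was also called higher in shARNT, at 489 ± 53.6 (0.25, adjusted p 0.0926), where its libraries overlapped those of shControl. CDH6, also known as K-cadherin and present in the proximal tubule, rose from 13874 ± 521 to 27963 ± 1507 in shARNT (1.01, adjusted p 5.67e-78) and 45691 ± 1964 in shBMAL1 (1.72, adjusted p 7.88e-170). CDH17 rose from 44.5 ± 11.9 to 99.9 ± 20.7 and 152 ± 28 (1.17 and 1.77, adjusted p 0.000336 and 1.75e-10). CDH11, a cadherin of mesenchymal cells, fell under shARNT (−0.68, adjusted p 0.000198) and rose under shBMAL1 (1.36, adjusted p 2.65e-31). CDH13, which encodes the lipid-anchored T-cadherin, fell in both (−0.26 and −1.17, adjusted p 0.000191 and 1.66e-54). Of the proteins that tie cadherins to actin, CTNNA1 (α-catenin) was lower by 0.17 (adjusted p 0.00343) and 0.30 (adjusted p 7.26e-05), and AFDN (afadin, listed as MLLT4) by 0.23 (adjusted p 0.000696) and 0.45 (adjusted p 3.89e-09).

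Mesenchymal markers were split as well. Under shARNT, 7 of 20 tested were lower and 5 higher (median −0.19), and under shBMAL1 7 of 22 were lower and 7 higher (median 0.15). FN1, the gene of fibronectin, rose from 369230 ± 26910 to 509700 ± 46780 in shARNT (0.47, adjusted p 3.43e-11). It was also called higher under shBMAL1 (0.15, 95% interval 0.01 to 0.28, adjusted p 0.0869), where its libraries overlapped those of shControl. CD44, a hyaluronan receptor gene, fell from 24113 ± 2013 to 10435 ± 1800 in shBMAL1 (−1.21, adjusted p 2.28e-32) and was at 24796 ± 1195 in shARNT. NT5E (CD73) fell in both knockdowns, by 0.66 (adjusted p 4.97e-22) and 1.25 (adjusted p 5.35e-69). TPM1, a tropomyosin gene, fell from 16523 ± 1974 to 8867 ± 541 in shARNT (−0.89, adjusted p 2.70e-31) and was at 17359 ± 840 in shBMAL1. The receptor kinase gene AXL fell in both knockdowns (−0.65 and −0.43, adjusted p 5.64e-35 and 4.82e-11), as did the matrix gene TNC (−0.34 and −0.85, adjusted p 9.50e-06 and 1.18e-24). The myosin light chain gene MYL9 rose in both (0.47 and 0.42, adjusted p 2.55e-07 and 0.000103). ACTA2, which encodes smooth muscle actin, and LUM, which encodes lumican, rose under shBMAL1, by 0.61 (adjusted p 5.72e-06) and 1.05 (adjusted p 1.67e-05), and were at −0.06 (adjusted p 0.786) and −0.27 (adjusted p 0.502) under shARNT.

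LUM also stands on the list of 5 fibroblast markers. Of these, COL1A2 was listed at 0 in all libraries, and the summed level of the list was 232 to 289 in shControl, 199 to 209 in shARNT and 334 to 399 in shBMAL1. The sum of the 6 proximal tubule markers was 7259 to 8384, 6843 to 8071 and 11470 to 12440, most of it GGT1, which rose under shBMAL1 (0.62, adjusted p 4.41e-17). The 4 immune markers summed to 7114 to 7882, 6729 to 7344 and 5325 to 6732, nearly all of it CD68, a lysosomal gene that is not confined to macrophages. The 4 endothelial markers summed to 2.01 to 10.0, 5.89 to 9.94 and 4.03 to 4.96. The 7 renal carcinoma markers summed to 26370 to 27950, 24490 to 25390 and 21760 to 24430. Under shBMAL1, PAX8 (−0.49, adjusted p 1.71e-11) and KRT18 (−0.40, adjusted p 8.54e-06) were lower, and PAX2 (0.43, adjusted p 0.000193) and the HIF target gene CA9 (1.05, adjusted p 2.15e-08) were higher. Under shARNT, CA9 fell from 128 ± 18.9 to 17.7 ± 0.809 (−2.85, adjusted p 6.93e-19) and EPAS1, the gene of HIF2α, was lower (−0.23, adjusted p 0.000563). The part of these shifts in the changes of the members was not tested, and in bulk RNA fewer cells with a transcript and less transcript per cell cannot be told apart.

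**Figure D4:**
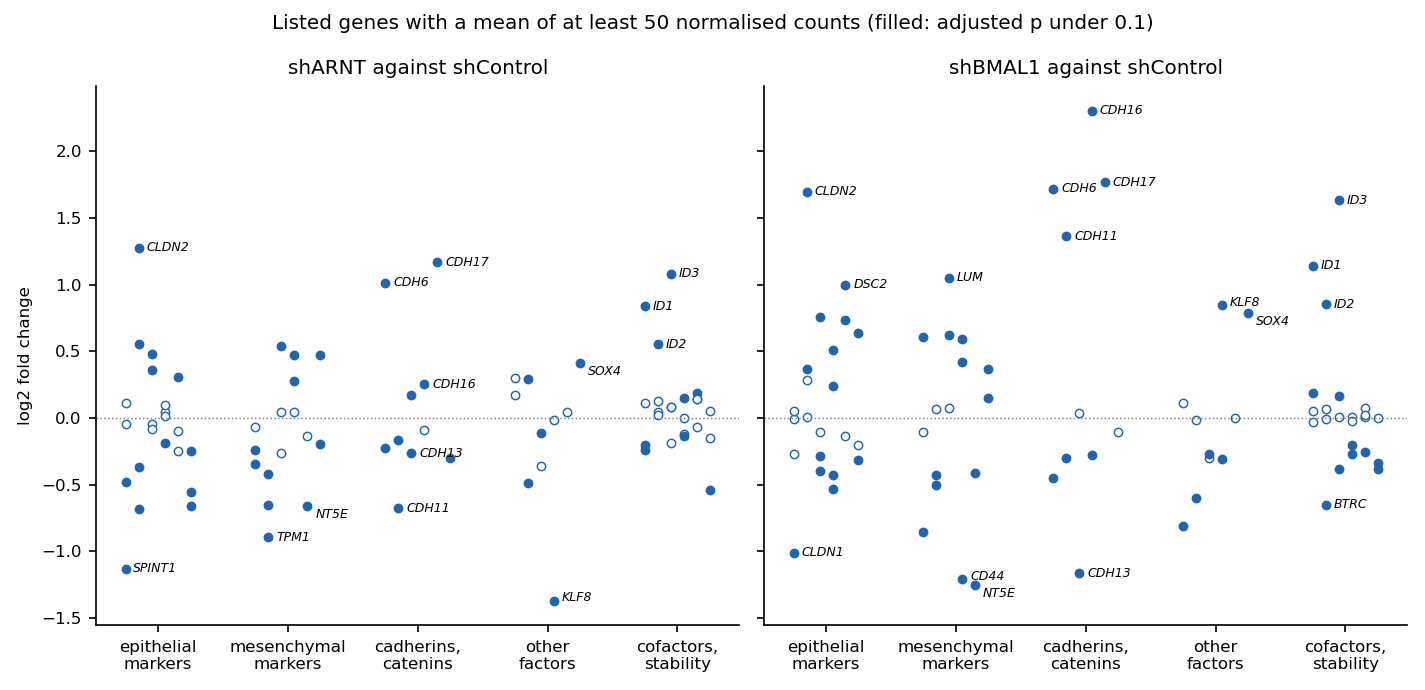
Log2 fold change (vertical axis) of listed genes whose mean normalised count was 50 or more, under shARNT (left) and shBMAL1 (right); filled points had an adjusted p under 0.1, and some called genes are named. Each of the 5 lists plotted has called genes on both sides of 0, from CDH16 at 2.30 to NT5E at −1.25 under shBMAL1 and from CLDN2 at 1.27 to KLF8 at −1.37 under shARNT.

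Genes that act on the SNAI, ZEB and TWIST factors were counted next. Of these cofactors and stability regulators, 4 of 24 tested were lower and 5 higher under shARNT, and 7 of 25 were lower and 6 higher under shBMAL1. The share called in either direction under shARNT is close to the 35.4% of all genes. The most raised were the ID genes, whose products lack a DNA-binding region and hold bHLH factors off DNA. ID1 went from 1209 ± 13.3 to 2155 ± 107 in shARNT and 2670 ± 31.8 in shBMAL1 (0.84 and 1.14, adjusted p 2.01e-31 and 1.63e-54). ID3 went from 604 ± 50.8 to 1274 ± 74.3 and 1875 ± 196 (1.08 and 1.63, adjusted p 1.17e-30 and 6.43e-56), and ID2 rose by 0.55 and 0.85 (adjusted p 8.79e-12 and 8.51e-17). In the direct comparison all 3 were higher in shBMAL1, by 0.31 for ID1 (adjusted p 0.000121), 0.30 for ID2 (adjusted p 0.00765) and 0.56 for ID3 (adjusted p 2.60e-08). BTRC, an F-box protein that marks Snail for degradation, fell under shBMAL1 from 1655 ± 137 to 1054 ± 22.2 (−0.65, adjusted p 1.76e-12) and was at 1702 ± 44.6 in shARNT. LIMD1, a LIM protein that binds Snail and Slug, was lower in both, by 0.54 (adjusted p 5.95e-06) and 0.38 (adjusted p 0.00103).

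Other transcription factors with a described role in EMT were called lower in 3 of 11 and higher in 2 of 11 tested under shARNT, and lower in 4 of 12 and higher in 2 of 12 under shBMAL1. The 5 calls under shARNT became 3 without shControl replicate 3 or without any single shARNT library, and with the replicate number as a block. They also became 3 without independent filtering and at an adjusted p under 0.05. SOX4 rose in both knockdowns, from 443 ± 65.2 to 586 ± 58.8 and 763 ± 44.1 (0.41 and 0.78, adjusted p 0.0051 and 8.48e-10). KLF8 fell under shARNT (−1.37, adjusted p 7.69e-05) and rose under shBMAL1 (0.84, adjusted p 0.000499), at 33.1 ± 8.14 and 154 ± 10.1 against 85.8 ± 15.8 in shControl. TCF12, a bHLH partner of TWIST proteins, rose under shARNT (0.29, adjusted p 6.59e-06) and was at −0.02 under shBMAL1 (adjusted p 0.926). Of 12 factors of the epithelial state, 4 were listed at 0 in all libraries. Under shARNT, 1 of 5 tested was lower and 1 higher, and under shBMAL1, 2 of 7 were lower and 1 higher. KLF5 was called lower under shBMAL1 (−0.41, adjusted p 0.0604), a call lost in 5 of the 6 fits that left out a library, with −0.37 and an adjusted p of 0.215 without shControl replicate 3. ELF3, an ETS factor of epithelia, rose from 1566 ± 99.6 to 1990 ± 159 in shARNT and 2341 ± 63 in shBMAL1 (0.35 and 0.58, adjusted p 6.65e-05 and 2.01e-12). KLF4 fell from 458 ± 57.2 to 295 ± 41.5 and 193 ± 27 (−0.63 and −1.25, adjusted p 4.50e-05 and 3.93e-15).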

How the data were processed

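RNA of 786-O cells with shControl, shARNT or shBMAL1 (3 libraries each, 9 in all) was analysed. The values deposited by the authors were estimated counts, given as total reads per gene. The study's methods name SeqMan NGen 17 for alignment of the paired-end reads to GRCh37 and ArrayStar 17 for counting, whereas the submitters' processing notes list STAR, hg38 and DESeq2. The gene annotation was not given in the sources used here. A value of 0.009 stood for 0 (46.3% of cells) and was set to 0. Fractional values (6.14% of the others) were rounded. Of 38074 rows, 53 shared a name and were summed, and 28 named as dates were kept apart.

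Each comparison was fitted over all genes in DESeq2 1.42.0 (R 4.3.3) on its 6 libraries, with median-of-ratios size factors and independent filtering at 0.1, the tool and threshold of the study. Normalised counts used size factors over 9 libraries. Pairs of libraries of a group differed by 7.60 to 17.6 in chi-square per degree of freedom, so none was a copy of another. Library totals of 33793043 to 35444731 reads differed little in depth, whereas the spread between libraries differed by gene and group, and intervals cover that spread.

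The members and lists were chosen with earlier results of these data known. Named genes were the members, both targets, the antisense neighbours, for each list and comparison up to 3 most lowered and 3 most raised called genes whose mean normalised count was 50 or more, and the 3 genes (mean of 100 or more) most like each member at 50 or more, the closest of which is printed. Cell type markers and a few other listed genes that this rule did not choose are also given. Gene positions came from GENCODE v44 lifted to GRCh37, and promoters from RefSeq. Alternatives were edgeR 4.0.16 with TMM, TMM size factors, a filter of 10 counts in 3 libraries, no independent filtering, an adjusted p under 0.05, a minimum of 1.5-fold, a fit of 9 libraries, a replicate block, each library left out and, added after seeing the data, antisense sums.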

Additional observations from a re-analysis of the deposited data

How the results depend on the processing

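The number of members called differed from 4 under shARNT, 4 under shBMAL1 and 5 in the direct comparison most with a minimum change of 1.5-fold, which left 0, 2 (CDH1 and ZEB1) and 1 (CDH1), since the other changes were smaller. With each library left out it was 2 to 4, 4 to 4 and 3 to 5. Of the member fold changes under the alternatives, 330 kept direction and call, 24 lost the call, 3 gained it and 3 changed sign without being called. The last were CDH1 under shARNT without shControl replicate 2 (−0.26) or shARNT replicate 2 (−0.30; range with each library left out −0.30 to 0.57), and VIM in the direct comparison without shBMAL1 replicate 2 (0.028; range −0.057 to 0.028). The cause was not tested. SNAI1 in the direct comparison passed the threshold in edgeR (adjusted p 0.0597), after the count filter (0.0796) and without shBMAL1 replicate 1 (0.0742). A replicate block gave 4, 4 and 4 members called and changed no call of a member but that of EPCAM. Same-numbered libraries did not deviate together (correlations −0.15, −0.14 and 0.07 for shARNT with shControl, −0.15, 0.11 and 0.06 for shBMAL1 with shControl), so the numbers were not taken as pairs. Among the other named genes no direction turned. Of 117 of their calls, 53 were lost at 1.5-fold, 13 with the replicate block, 11 at an adjusted p under 0.05, 9 without independent filtering and 0 to 2 under the other alternatives on all libraries. Listed genes that the naming rule chose and whose call was lost without a single library include MARVELD2, FOXC2, TCF3, CDH24, TPM2 and CDH16 under shARNT, and KLF5, FOXC1, FOXC2, FBXO45, TPM2 and CUBN under shBMAL1. Low counts limit the estimate for CDH1 in shControl and shARNT. Whether depth or the assignment of reads to rows limits TWIST1 and TWIST2 was not tested.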

Other observations

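The genes whose pattern over the 9 libraries was closest to each member were found among 11822 genes by the root-mean-square difference of centred log2 counts. They were PLXNA3 for VIM (0.0304), PIK3CB for CDH2 (0.0275), RAB36 for EPCAM (0.0498), MED30 for ZEB1 (0.0672), JADE3 for ZEB2 (0.0407), B3GALT6 for SNAI1 (0.0852) and CPEB1 for SNAI2 (0.0471). The members themselves deviated from their own means by 0.104 (VIM), 0.0338 (CDH2), 0.147 (EPCAM), 0.275 (ZEB1), 0.124 (ZEB2), 0.243 (SNAI1) and 0.283 (SNAI2), so the match for CDH2, which hardly varied, says little.

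The miR-200 family represses ZEB1 and ZEB2, but mature miRNAs are not captured in mRNA libraries. The rows of MIR141 and MIR200C were listed at 0 in all libraries, and those of MIR200A, MIR200B and MIR429 averaged 1.88, 0.780 and 2.87 normalised counts. ZEB1-AS1, which shares 396 exon bases with ZEB1 on the other strand, averaged 312 ± 34.1 in the control, 269 ± 27 with shARNT and 320 ± 34.5 with shBMAL1 and was not called in any comparison, and ZEB2-AS1 averaged 0.988.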
